A study of Mus musculus with 18 samples.

Results

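Mucins leave the secretory cell covered with O-linked sugar chains, and the enzymes that build these chains are described here across the cell types of the mouse stomach. The genes were chosen by name: every gene symbol in the count tables that starts with Galnt, B3gnt, B4galt, B4galnt, Gcnt, St3gal, St6gal or Chst, or with Fut and a number, together with *A4gnt*, *C1galt1* and *C1galt1c1*. This gave 79 of the 31201 gene names. One of them, *Galnt6os*, is a long non-coding RNA on the strand opposite to *Galnt6* and codes for no enzyme. The counting was not stated to use strand, so reads of these 2 genes may be shared.

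The cells came from wild-type male C57BL/6J mice, 10 weeks old and untreated, and were measured by Quartz-Seq2, in which a cell sorter puts 1 cell into each well of a 384-well plate and each transcript is counted once by its unique molecular identifier (UMI). Dataset 1 held corpus (the acid-secreting body) and antrum (the distal part) sorted together, as 2 pools of 3 mice on 6 plates, and dataset 2 held corpus alone, as 2 further pools of 3 mice, called K and T, on 12 plates. The plates held 3054370 to 5346035 UMIs in dataset 1 and 10540256 to 12850942 in dataset 2, and 491 and 3993 cells were kept by the authors. Cell types are the authors' clusters: chief, neck, parietal, isthmus, pre-pit and mature pit cells of the corpus in dataset 2, and corpus and antrum mature pit and pre-pit, neck, parietal and isthmus-like cells in dataset 1. The region of a cell in dataset 1 is known only through its cluster. Cluster 5-7 of dataset 1 (70 cells, 50 of them called duodenum cells in an earlier annotation by the authors) held the 10 enterocyte markers checked, among them *Apoa1*, *Apoa4*, *Fabp1* and *Alpi*, at a summed 68372 CPM and is called enterocyte-like. The same markers summed to 7557 CPM in parietal cells, nearly all of it *Apoa1* (7277 CPM), to 1332 CPM in antrum mature pit cells and to less in the other epithelial types of dataset 1. Cluster 10 (21 cells) is called chief-like from *Cblif*, *Pgc*, *Pga5* and *Bhlha15*, at a summed 255142 CPM. Its 10 top genes by log2 difference in level included *Cblif* and *Chia1*, but also *Try4*, *Try10*, *Pla2g1b*, *Clps* and *Pnliprp2*, which are not among these markers. CPM here are a gene's UMIs in a cell type and pool per 1000000 UMIs after scaling, and each mean is given with its SD over the 2 pools. The 2 datasets were scaled separately, so that no level is compared between them by a test.

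A mucin-type chain begins when a Galnt enzyme attaches N-acetylgalactosamine to a serine or threonine. *C1galt1* adds galactose and so makes core 1, with *C1galt1c1* (Cosmc) as its dedicated chaperone, while *B3gnt6* makes core 3, and the Gcnt enzymes add the branches of core 2 and core 4. B3gnt and B4galt enzymes lengthen the chain, the fucosyltransferases, sialyltransferases, *B4galnt2* and *B4galnt3* cap it, and Chst enzymes add sulfate. In the stomach the surface (pit) mucin MUC5AC carries fucosylated chains, made with the help of *Fut2*, and the gland mucin MUC6 ends in α1,4-linked N-acetylglucosamine, which *A4gnt* attaches. Several members, such as *B4galt7*, *Chst3* and *B4galnt1*, act on proteoglycans or glycolipids and not on mucins. The families counted below were set by gene name alone, so that a family count can include such members and does not measure a step of the mucin chain.

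Of the 79 names, 49 had enough UMIs to be tested in dataset 2 and 38 in dataset 1, and 11 and 17 had fewer than 10 UMIs in all cells of dataset 2 and dataset 1. Of the 18 Galnt genes 10 were tested in dataset 2. *B3gnt6*, the core 3 enzyme, had 15 UMIs in all cells of dataset 2 and 5 in dataset 1 and was tested in neither. Both core 1 genes were tested in both datasets. Of the 5 Gcnt genes 4 were tested, of the 15 extension genes 12 and of the 25 capping genes 15 in dataset 2, and of the 12 Chst genes 6.

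Summed over all 79 genes, the enzymes took 3679 ± 95.6 CPM in neck and 3546 ± 149 CPM in mature pit cells (SD, n = 2 pools), against 3270 ± 54.9 in pre-pit, 2835 ± 57.6 in isthmus, 1693 ± 25.6 in chief and 1498 ± 20.6 in parietal cells. The pools of neck and mature pit cells overlapped in this sum, and those of chief and parietal cells lay below all others. In dataset 1 the sums were antrum mature pit 3912 ± 60.6, corpus mature pit 3853 ± 88.8, neck 3764 ± 38.7, antrum pre-pit 3435 ± 51.0, corpus pre-pit 3266 ± 18.6, enterocyte-like 2671 ± 355, isthmus-like 2579 ± 201, chief-like 1755 ± 183 and parietal 1148 ± 71.9 CPM. There the pools of the 2 mature pit types and neck overlapped with their neighbours, as did those of enterocyte-like and isthmus-like cells. Of the genes tested in dataset 2, 11 were above every other epithelial type in both pools in neck, 10 in parietal, 6 in mature pit, 4 in chief, 2 in pre-pit and 0 in isthmus cells. Of all genes tested, 6.18% stood apart in this way in neck, 21.8% in parietal, 9.14% in mature pit, 14.3% in chief, 2.58% in pre-pit and 9.06% in isthmus cells, so that the 20.4% of enzyme genes in parietal cells were near the share of all genes, while in neck cells the share was 22.4%. In dataset 1 there were 11 such genes in enterocyte-like, 4 each in neck and parietal, 2 in corpus mature pit and 1 each in antrum mature pit and chief-like cells, where of all genes 15.9%, 2.73%, 12.9%, 1.69%, 3.96% and 8.25% stood apart. These shares are descriptions and were not tested.

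**Figure D1:**
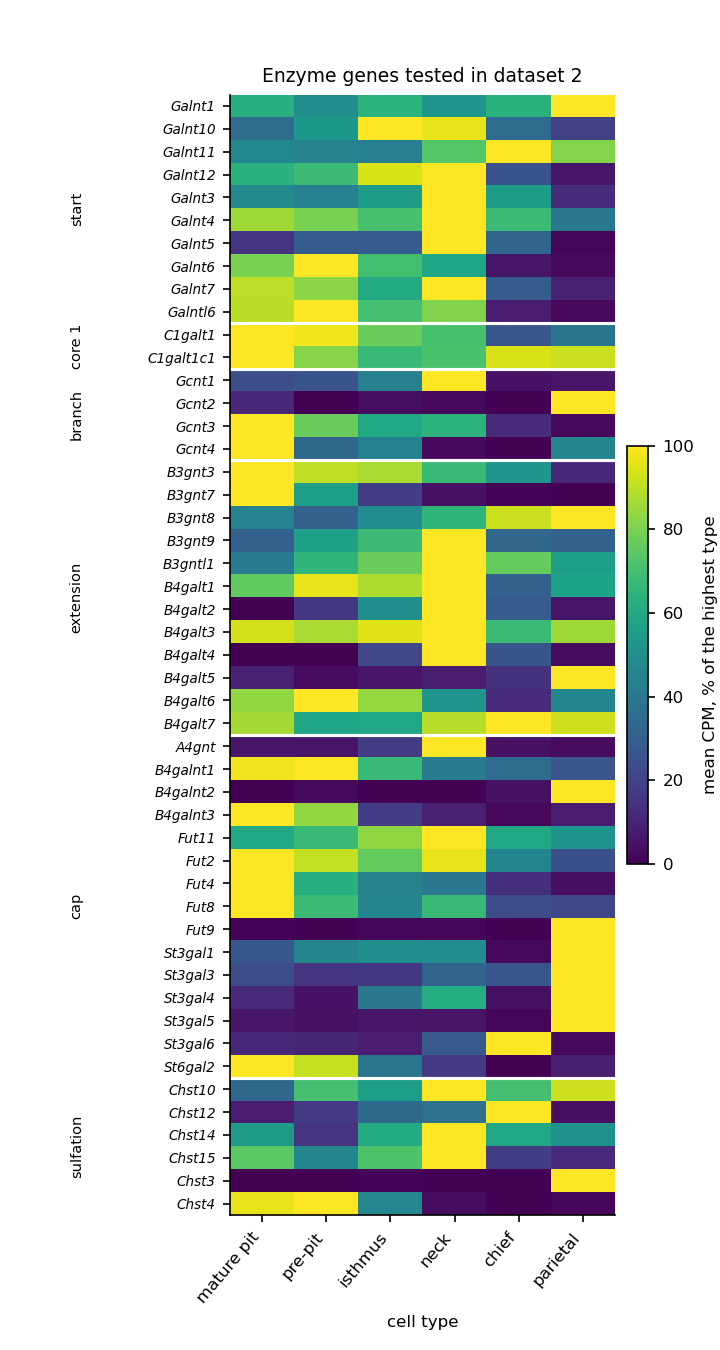
Mean level of the 49 tested enzyme genes (rows, grouped by step of the chain) in the 6 epithelial cell types of dataset 2 (columns), as a percent of the gene's highest type. In both pools 11 genes are above all other types in neck (6.18% of all genes tested) and 10 in parietal cells (21.8% of all genes), and *St3gal6* and *Chst12* stand out in chief cells. Some of the neck genes are near the floor, such as *B3gnt9* at a mean of 1.16 CPM and *B4galt4* at 1.83 CPM.

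The promoters of 3 enzymes are shown because each gene was high in another cell type: *A4gnt* in neck, *St3gal6* in chief and *St3gal4* in enterocyte-like cells. The windows run from 250 bases before to 50 after a start site in the RefSeq table (GRCm38.p6) and were found once each, base for base, in GRCm39, at chr9:99494305-99494604 (plus strand), chr16:58344567-58344866 (minus strand) and chr9:35028111-35028410 (minus strand). *St3gal6* has a second start in the table and the *St3gal4* window lies within the annotated gene. Capitals mark the motifs that were found, on either strand, among 6 that were searched. The motif of GATA factors was spelled AGATAA, that of FOX factors was TGTTTAC, for HNF4 it was AAAGTCC, for CDX factors the letters were TTTATG, while MIST1 was given by CATATG, and the ERR receptors had AAGGTCA.
A4gnt: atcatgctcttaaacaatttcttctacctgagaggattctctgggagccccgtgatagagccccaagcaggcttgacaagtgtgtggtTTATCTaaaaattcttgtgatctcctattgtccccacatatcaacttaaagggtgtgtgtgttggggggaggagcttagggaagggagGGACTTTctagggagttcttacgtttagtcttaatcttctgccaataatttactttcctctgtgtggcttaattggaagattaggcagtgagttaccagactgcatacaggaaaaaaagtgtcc
St3gal6: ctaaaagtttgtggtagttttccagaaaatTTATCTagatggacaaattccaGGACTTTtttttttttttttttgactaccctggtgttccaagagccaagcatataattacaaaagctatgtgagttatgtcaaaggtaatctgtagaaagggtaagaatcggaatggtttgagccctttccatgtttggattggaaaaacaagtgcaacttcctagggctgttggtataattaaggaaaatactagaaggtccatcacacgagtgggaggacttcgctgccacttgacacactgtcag
St3gal4: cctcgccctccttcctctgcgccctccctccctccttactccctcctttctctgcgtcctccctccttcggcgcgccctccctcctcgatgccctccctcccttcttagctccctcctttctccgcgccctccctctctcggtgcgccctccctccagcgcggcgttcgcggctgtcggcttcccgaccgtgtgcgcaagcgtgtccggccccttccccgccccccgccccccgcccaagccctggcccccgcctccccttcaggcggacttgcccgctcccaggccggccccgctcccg
The *A4gnt* and *St3gal6* windows each held 1 GATA and 1 HNF4 motif, at -162 and -74 from the start site in *A4gnt* and at -220 and -198 in *St3gal6*, and the *St3gal4* window held none of the 6. The window of the other *St3gal6* start, at chr16:58343740-58344039, held none of them either. Of all 32851 promoters in the table, 11.2% held the GATA, 3.65% the FOX, 4.21% the HNF4, 11.9% the CDX, 3.91% the MIST1 and 4.72% the ERR motif. Among the 80 promoters of the 62 members in the table the shares were 8.75%, 1.25%, 7.50%, 7.50%, 0% and 0%. A match of letters is a description of the window and was not tested as a site.

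The mucous neck cell and the surface pit cell were compared first. In dataset 2, 16 enzyme genes were higher and 15 lower in neck than in mature pit cells out of 49 tested (edgeR quasi-likelihood test, Benjamini-Hochberg adjusted p under 0.05 over all 13894 genes). Of all genes tested, 46.6% were called, 24.7% higher and 22.0% lower, beside 63.3% of the enzyme genes. The median log2 fold change of the enzyme genes was 0.34, or 0.15 with genes at 0 in a type set to their bound, against 0.10 over all genes. Since the clustering used the counts tested here, part of what any such p-value measures was set when the cells were clustered, and members with few UMIs passed the filter through the type where they are high. Of the Galnt genes 5 rose and 2 fell, both core 1 genes fell, 1 Gcnt gene rose and 2 fell, 4 extension genes rose and 3 fell, 5 caps rose and 5 fell, and 1 Chst gene rose and 1 fell.

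*A4gnt* (chromosome 9, 99494555 to 99504420, GRCm39), which caps the gland mucin, was at 610.2 and 558 CPM in the neck cells of pools K and T and at 29.1 and 41.0 CPM in mature pit cells. The pools did not overlap, and neck cells were 16.4-fold higher (log2 fold change 4.04 ± 0.21 SE, adjusted p = 3.48e-09). *A4gnt* was seen in 1210 of 1247 neck cells (97%, median 22530 UMIs per cell), in 31.2% of the deeper parietal cells (median 47647 UMIs), which are not known to make the gland mucin, and in 52.1% of mature pit cells (median 43578). Its level differed between the 4 neck clusters, from 421 ± 18.4 CPM in cluster 2 and 518 ± 26.2 in cluster 0 to 617 ± 18.6 in cluster 12 and 922 ± 81.1 in cluster 7, as a description, since the clusters were made from these counts. Isthmus cells lay between, with 111 and 90.4 CPM, and among the isthmus clusters it ran from 65.0 ± 7.30 in cluster 11 to 145 ± 16.3 in cluster 3.

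*Gcnt1*, which makes core 2 branches, had 56.0 and 41.2 CPM in neck and 16.8 and 6.42 CPM in mature pit cells. Both neck pools were above both pit pools, by 4.39-fold (log2 fold change 2.13 ± 0.39 SE, adjusted p = 0.00054). *Gcnt3*, which makes both core 2 and core 4 branches in mucous tissues, went the other way, with 544 and 508 CPM in neck and 769 and 855 in mature pit cells, a 1.54-fold difference (log2 fold change -0.63 ± 0.13 SE, adjusted p = 0.00103). *Gcnt4* was rare in both, with 2 UMIs in all neck cells and 11 in mature pit cells, and was lower in neck by 37.8-fold (95% counting interval 8.25 to 351), where the interval covers counting error only. The core 1 enzyme *C1galt1* was lower in neck, at 216 and 180.4 against 270.3 and 289 CPM (log2 fold change -0.50 ± 0.10 SE, adjusted p = 0.00079), and its chaperone *C1galt1c1* too, at 75.1 and 76.4 against 113 and 99.8 CPM (log2 fold change -0.49 ± 0.10 SE, adjusted p = 0.00090). Both core 1 genes thus fell in neck, while *Gcnt1* and *Gcnt3* had opposite signs.

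The fucosyltransferase *Fut2* had 193 and 187 CPM in neck and 203 and 192 CPM in mature pit cells, with overlapping pools and no call (log2 fold change -0.06 ± 0.11, adjusted p = 0.701). The 5 largest falls in neck, among genes with at least 10 UMIs in each pit pool, were in genes that lengthen, cap or sulfate. *Chst4*, a sulfotransferase of N-acetylglucosamine, had 2.02 and 2.29 CPM in neck and 75.0 and 52.0 in mature pit cells and was 29.1-fold lower (log2 fold change -4.86 ± 0.30 SE, adjusted p = 2.08e-08). *B3gnt7*, which lengthens sulfated chains, had 1.18 and 1.02 CPM in neck against 21.4 and 28.2 (log2 fold change -4.49 ± 0.26 SE, adjusted p = 1.41e-08). *B4galnt3*, which can put N-acetylgalactosamine on a chain end, had 0.674 and 0.843 CPM in neck against 10.4 and 6.42 (log2 fold change -3.43 ± 0.51 SE, adjusted p = 8.69e-05). *St6gal2* (log2 fold change -2.58 ± 0.25) and the fucosyltransferase *Fut4* (-1.34 ± 0.16) fell as well. In all 5 both pit pools were above both neck pools. *B4galnt2* had 1 UMI in neck and 0 in mature pit cells.

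Next to *A4gnt*, the largest rises by fitted log2 fold change were small in level. *B4galt2* had 2.41 and 2.23 CPM in neck and no UMI in mature pit cells, at least 1.91-fold higher against 3 UMIs per cell type and pool. *B4galt4* had 1.91 and 1.75 CPM and no UMI, at least 1.5-fold higher. The ranks of *B4galt2* and *B4galt4* depend on the prior count of the fit, and both bounds lie below the rise of *Gcnt1*. *Galnt5* had 4.32 and 6.87 against 1.36 and 0.356 CPM (log2 fold change 2.78 ± 0.81 SE, adjusted p = 0.0124) and the sulfotransferase *Chst12* 3.71 and 4.76 against 1.36 and 0.356 CPM (log2 fold change 2.38 ± 0.50 SE, adjusted p = 0.00149). Without pool T of the mature pit cells, *B4galt4* (adjusted p = 0.0658), *Galnt5* (0.162) and *Chst12* (0.0628) were no longer called in edgeR and the enzyme count was 23. The other 10 rises lay between 0.41 and 2.26 on the log2 scale and included *Galnt3*, *Galnt10*, *Galnt11* and *Galnt12*. The other 6 falls lay between -1.27 and -0.26. Of transcripts that mark the other cell type, the pit markers *Muc5ac*, *Gkn1*, *Gkn2* and *Tff1* summed to 1233 CPM in neck against 149170 CPM in mature pit cells, *Muc6* was at 52.6 CPM in mature pit against 1460 CPM in neck cells, and the chief markers were at 11081 CPM in mature pit cells. *Tff2*, the other neck marker checked, went the other way, with 5906 CPM in neck cells but 11047 in mature pit cells, so that both neck markers summed to 7365 CPM in neck and 11099 CPM in mature pit cells. The paper reports *Pgc*, one of the chief markers, in most gastric epithelial cells, with a gradual rise from mature pit to chief cells. The part of all these transcripts in the enzyme levels was not tested.

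**Figure D2:**
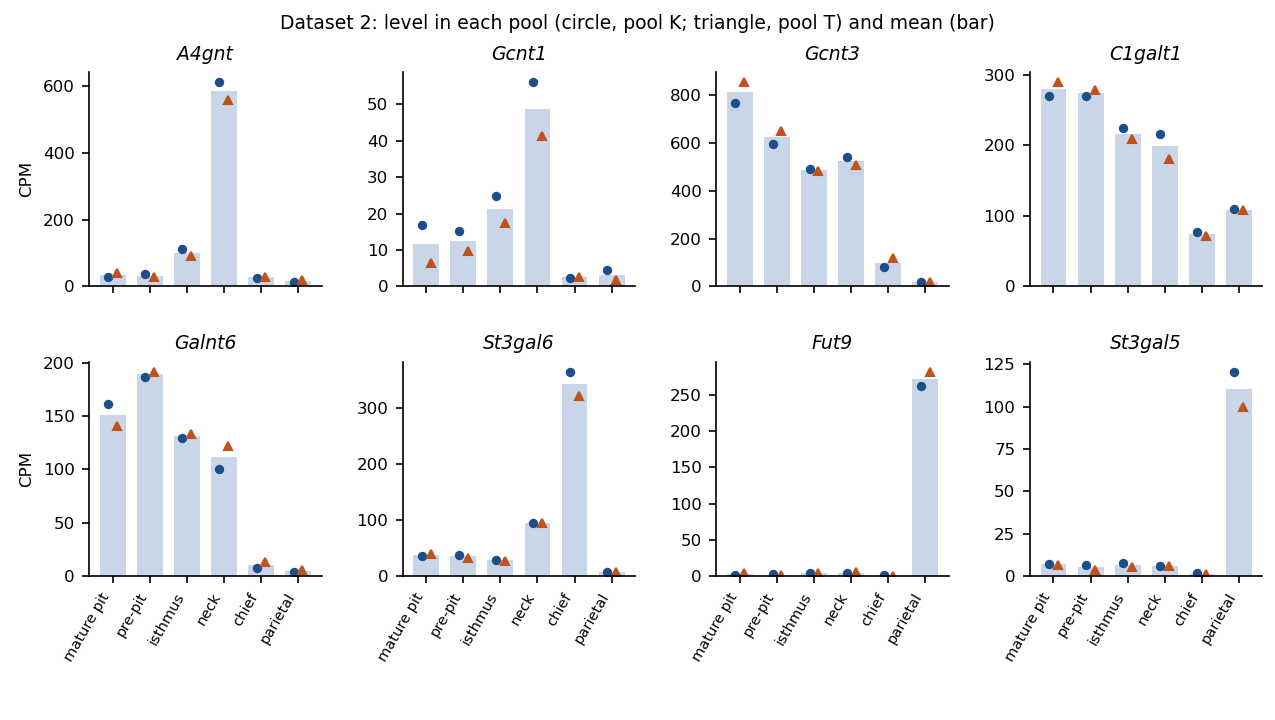
Level (CPM) of 8 enzyme genes in each pool of the 6 epithelial cell types of dataset 2, with bars at the mean of the 2 pools. *A4gnt* and *Gcnt1* are highest in neck, *Gcnt3* in mature pit, *Galnt6* in pre-pit, *St3gal6* in chief and *Fut9* and *St3gal5* in parietal cells.

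In dataset 1, from other mice, the neck cluster carries no region and was sorted from corpus and antrum together, so that it may hold antral gland cells, although the authors placed it among the corpus lineages, while its pit cells were those of the corpus cluster. There 8 of the 38 enzyme genes tested were higher and 9 lower in neck than in corpus mature pit cells, beside 40.4% of all 10604 genes called, 20.7% higher and 19.7% lower. Of the enzyme genes 44.7% were called, a share near that of all genes, and their median log2 fold change was 0.25, or 0.23 with bounds, against 0.13 over all genes. By family, 3 Galnt genes rose, both core 1 genes fell, 1 Gcnt gene rose and 1 fell, 2 extension genes rose and 2 fell, 1 cap rose and 4 fell, and *Chst4* rose. *A4gnt* had 553 and 593 CPM in neck and 8.42 and 13.2 CPM in corpus mature pit cells, a 53.1-fold difference (log2 fold change 5.73 ± 0.35 SE, adjusted p = 1.32e-10). *Gcnt1* had 64.0 and 45.1 CPM in neck and 0 and 3.95 CPM in pit cells, where it rests on 3 UMIs, and was higher in neck by 27.9-fold (95% counting interval 9.29 to 138). *Gcnt3* fell from 1084 and 962 CPM in pit to 537 and 545 in neck cells (log2 fold change -0.92 ± 0.18 SE, adjusted p = 0.00043). *C1galt1* had 196 and 231 against 399 and 349.9 CPM (log2 fold change -0.80 ± 0.14 SE, adjusted p = 0.00017) and *C1galt1c1* 69.3 and 88.6 against 124 and 147 CPM (log2 fold change -0.76 ± 0.21 SE, adjusted p = 0.00609). *Fut2* was again not called (log2 fold change -0.14 ± 0.18, adjusted p = 0.592), *Gcnt4* had 2 UMIs in neck and 3 in pit cells, *B4galnt2* had 1 and 0, and *B4galnt3* was not tested. *B3gnt7* had no UMI in neck cells and 21.6 and 38.2 CPM in pit cells, at least 9.23-fold lower in neck against 3 UMIs per cell type and pool. *Galnt3*, which starts chains, had 182 and 214 CPM in neck and 79.3 and 75.0 in pit cells (log2 fold change 1.36 ± 0.24 SE, adjusted p = 0.00012). The other named falls were *Fut4*, at 24.8 and 20.4 against 148 and 143 CPM (log2 fold change -2.7 ± 0.27 SE, adjusted p = 1.59e-07), *B4galnt1*, which builds gangliosides (-1.84 ± 0.19 on the log2 scale), *B3gnt3* (-1.19 ± 0.20), which extends core 1, and *St6gal2*, with 2 UMIs in neck cells and lower by 22.5-fold (95% counting interval 5.81 to 193). Besides these, *B4galt1*, *B4galt4* and *Galnt10* rose and *Fut8* fell. Corpus mature pit cells held 1260 CPM of chief markers and 0.601 CPM of *Muc6*, against 1907 CPM of *Muc6* in neck cells. *Tff2* was at 4345 CPM in these pit cells and at 16545 CPM in neck cells.

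Of the 38 genes tested in both datasets, 28 had the same sign, and 22 of 27 when each pool of the higher type had to hold 10 UMIs or more. Of all 10326 genes tested in both, 78.6% had the same sign, and 81.3% with that minimum, so that the enzyme genes were near the share of all genes. Both datasets called 17 of the 38, and 32.4% of all genes, of which 98.5% had the same direction. Of these 15 had the same direction, 6 higher in neck (*A4gnt*, *Gcnt1*, *B4galt1*, *B4galt4*, *Galnt3* and *Galnt10*) and 9 lower (*C1galt1*, *C1galt1c1*, *Gcnt3*, *B3gnt3*, *B3gnt7*, *B4galnt1*, *Fut4*, *Fut8* and *St6gal2*). With the same UMI minimum 13 genes had the same direction, 4 higher in neck, without *B4galt4* and *Galnt10*, and 9 lower. *Chst4* and *Galnt6* were called in opposite directions. *Chst4* had 34.0 and 13.6 CPM in neck and no UMI in corpus mature pit cells of dataset 1, where 3 UMIs would be 3.78 CPM. In dataset 2, as given above, both mature pit pools were above both neck pools. *Galnt6* had 163.4 and 116 CPM in neck and 37.3 and 61.8 in corpus mature pit cells of dataset 1 (log2 fold change 1.48 ± 0.24 SE, adjusted p = 6.52e-05), and 101 and 122 in neck and 161.7 and 141 CPM in mature pit cells of dataset 2 (log2 fold change -0.44 ± 0.13 SE, adjusted p = 0.0133), where it was named after its values were seen. Corpus pre-pit cells of dataset 1 had 58.9 and 37.0 CPM of *Chst4* and 157 and 165.4 CPM of *Galnt6*. Pre-pit cells of dataset 2 had 69.6 and 61.9 CPM of *Chst4* and 187 and 192 CPM of *Galnt6*. The difference between the datasets was not tested.

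**Figure D3:**
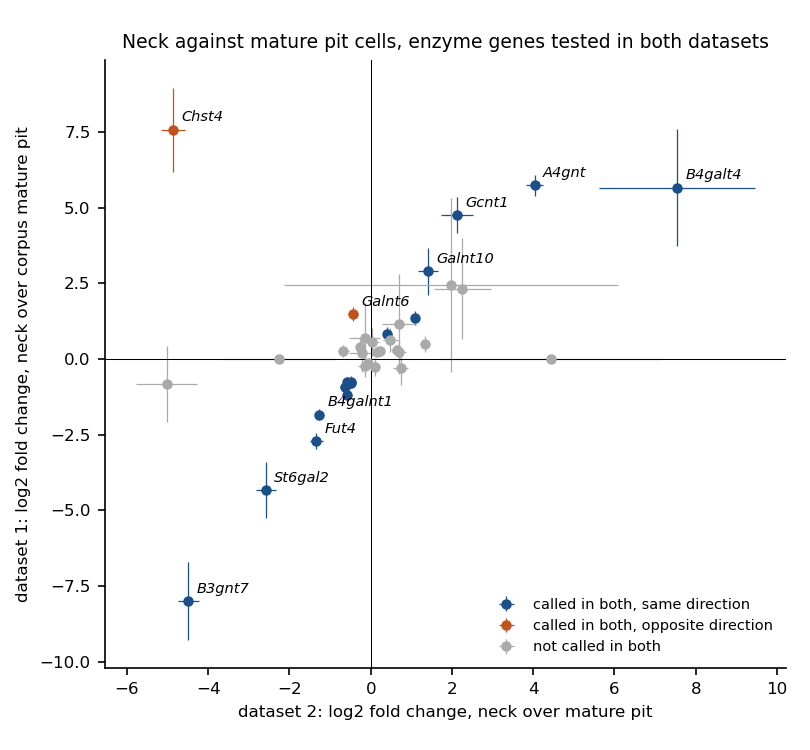
Log2 fold change of neck over mature pit cells (± SE) for the 38 enzyme genes tested in both datasets, dataset 2 on the x axis and dataset 1 on the y axis. The 15 genes called in the same direction lie in the upper right and lower left, and *Chst4* and *Galnt6* lie in the upper left. Genes with no UMI in both types of a dataset lie at 0 on its axis. Values of genes with no UMI in a type, such as *Chst4* in dataset 1, depend on the prior count of the fit.

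The companion genes that feed and partner these enzymes were taken from lists that are not members. Of 21 genes for donor sugars and Golgi transporters, 7 were higher and 6 lower in neck than in mature pit cells of dataset 2, with a median log2 fold change of 0.01, and 8 and 4 of 20 tested in dataset 1 (median -0.06). These calls were 61.9% of the donor genes in dataset 2 and 60% in dataset 1, beside 46.6% and 40.4% of all genes. The companion genes named here and below were not fixed in advance and were chosen after their values were seen. *Gfpt1*, which starts the hexosamine pathway, had 754 ± 37.0 CPM in neck and 243 ± 2.74 CPM in mature pit cells (log2 fold change 1.63 ± 0.10 SE, adjusted p = 2.05e-08), and *Slc35a3*, a Golgi transporter of UDP-N-acetylglucosamine, had 365 ± 29.97 and 212 ± 4.54 CPM (log2 fold change 0.78 ± 0.09 SE, adjusted p = 1.17e-05). *Papss2*, which makes the sulfate donor, was higher in pit cells, at 418 ± 40.8 against 102 ± 6.83 CPM (log2 fold change -2.03 ± 0.10 SE, adjusted p = 2.08e-09), as was *Gmds* of GDP-fucose synthesis, at 623 ± 11.9 against 303 ± 14.3 CPM (log2 fold change -1.04 ± 0.10 SE, adjusted p = 1.52e-06). Of the 13 mucins and secretory partners 11 were tested in dataset 2, with 6 higher and 4 lower in neck cells (median 0.94), and in dataset 1 8 were higher and 3 lower of 13 (median 1.84). The mucins and partners called were 90.9% of those tested in dataset 2 and 84.6% in dataset 1. In dataset 2 they included *Muc6* (4.77 ± 0.30), *Spdef* (2.30 ± 0.11) and *Creb3l4* (3.38 ± 0.18) among the rises and *Muc5ac* (-6.17 ± 0.35) and *Tff1* (-6.73 ± 0.30) among the falls, in log2 fold change ± SE. Of the 9 other transferases, 1 rose and 2 fell of 4 tested in dataset 2 (median -0.78), and 1 and 2 of 5 in dataset 1 (median 0.00). In both *B3galnt2* was the one that rose and *B3galt4* and *St8sia6* fell.

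Chief cells, which secrete pepsinogen, were compared with neck cells next. According to the paper, chief cells were earlier held to arise from neck cells, while recent studies also propose that they renew themselves. Of the 49 enzyme genes tested, 25 were lower and 5 higher in chief cells, while of all genes 38.6% were called, 19.9% lower and 18.6% higher. Of the enzyme genes 61.2% were called. Their median log2 fold change was -1.47, or -1.34 with genes at 0 set to their bound, against -0.07 over all genes. By family, 7 Galnt genes fell and 2 rose, 10 caps fell and 1 rose, 5 extension genes fell, 2 Gcnt genes fell, 1 core 1 gene fell and 1 rose, and 1 Chst gene rose.

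*A4gnt* had 24 and 29.7 CPM in chief cells, 21.4-fold below neck cells (log2 fold change -4.42 ± 0.22 SE, adjusted p = 4.30e-09), with *Muc6* at 49.9 ± 28.6 against 1460 ± 32.1 CPM. *Gcnt1* had 2.24 and 2.7 CPM in chief cells (19.3-fold lower, log2 fold change -4.27 ± 0.57 SE, adjusted p = 4.57e-05) and *Gcnt3* 79.9 and 119 CPM (5.22-fold lower, log2 fold change -2.38 ± 0.14 SE, adjusted p = 2.39e-08). *C1galt1* fell to 77.2 and 72.0 CPM (log2 fold change -1.41 ± 0.11 SE, adjusted p = 2.88e-07) and *Fut2* to 75.5 and 102 CPM (log2 fold change -1.08 ± 0.12 SE, adjusted p = 7.81e-06). *C1galt1c1* went the other way, at 109.6 and 91.7 CPM in chief cells against 75.1 and 76.4 in neck cells (log2 fold change 0.40 ± 0.10 SE, adjusted p = 0.00549), a call that was lost without pool K of the chief cells (adjusted p = 0.128) and with no filter on low counts (0.0745).

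*St3gal6*, a sialyltransferase of galactose ends, had the largest log2 rise over neck cells among the genes called. It had 365 and 321 CPM in chief, 95.5 and 95.3 in neck and 35.9 and 39.9 in mature pit cells, 3.58-fold above neck (log2 fold change 1.84 ± 0.09 SE, adjusted p = 2.48e-09) and 8.98-fold above pit cells (log2 fold change 3.17 ± 0.11 SE, adjusted p = 6.43e-11). In the neck clusters it ran from 69.8 ± 7.52 CPM in cluster 2, 92 ± 11.7 in cluster 0 and 103 ± 3.89 in cluster 7 to 189.5 ± 10.9 in cluster 12, the neck cluster that carries the chief cell marker *Cblif*. In dataset 1 the chief-like cluster had 312 and 570.2 CPM and neck cells 87.6 and 68.1 CPM. *Chst12* rose too, at 12.3 and 10.4 CPM (log2 fold change 1.41 ± 0.27 SE, adjusted p = 0.0010), and *Galnt11* (0.44 ± 0.15 on the log2 scale) and *Galnt1* (0.29 ± 0.10) rose by little and were each lost in edgeR when any 1 of the 4 compared pools was left out (adjusted p from 0.0504 to 0.200 for *Galnt11* and from 0.0545 to 0.502 for *Galnt1*). Both were also lost with no filter on low counts (0.160 and 0.510), and *Galnt1* with all clusters in the fit (0.0528).

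The 5 largest falls against neck cells by fitted log2 fold change, among the genes named, were in *A4gnt*, *Gcnt1* and 3 sialyltransferases. The ranks of these sialyltransferases rest on no UMI or 1 UMI in chief cells and depend on the fit. The bound and the lower interval limits given for them here lie below the fall of *Gcnt3*. *St6gal2* had no UMI in chief cells and 2.58 and 2.17 CPM in neck cells, at least 1.68-fold lower. *St3gal1* had 1 UMI and was lower by 20.3-fold (95% counting interval 3.58 to 805). *St3gal4* had 1 UMI too and was lower by 16.8-fold (95% counting interval 2.97 to 669), with an adjusted p of 0.10 in edgeR without pool T of the chief cells. *Gcnt4* had no UMI in chief and 2 in neck cells, *B4galnt2* had 1 in each and *B4galnt3* 1 and 26, and none of these was called. The other 17 falls lay between -3.35 and -0.35 and included *Galnt6*, *Galnt7*, *Galnt12*, *Galntl6*, *B4galt1*, *B4galt6* and *Fut8*. Of the companions, 10 donor and transporter genes were lower in chief cells and 3 higher of 21, with a median log2 fold change of -0.34, and 6 mucins and partners were lower and 4 higher of 11 (median -0.70), with *Agr2* at 861 ± 310.1 against 5076 ± 63.7 CPM and *Xbp1* at 2138 ± 66.7 against 913 ± 15.4 CPM. Beside these, 38.6% of all genes were called, 19.9% lower and 18.6% higher. Of the 4 other transferases tested, *B3galt4* rose and *St8sia6* fell (median -0.07). Pit markers summed to 1775 CPM in chief cells, and *Pgc* and the other chief markers to 122354 CPM in neck cells against 284007 in chief cells, and their part in the comparison was not tested. The paper reports *Pgc* mRNA in most gastric epithelial cells, rising gradually from mature pit to chief cells. A chief marker sum in neck cells is thus not a measure of chief cell transcripts carried into them.

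Against mature pit cells, 23 enzyme genes were lower and 4 higher in chief cells, beside 50.3% of all genes called, 24.8% lower and 25.5% higher. Of the enzyme genes 55.1% were called, and the median log2 fold change was -0.92, or -0.43 with bounds, against 0.03 over all genes. This comparison shares its chief and its pit sums with those above. *Gcnt3* was 8.06-fold lower in chief cells (log2 fold change -3.01 ± 0.14 SE, adjusted p = 1.28e-09), *C1galt1* 3.76-fold (log2 fold change -1.91 ± 0.11 SE, adjusted p = 8.41e-09), *Galnt6* 13.9-fold, at 7.27 and 13.5 against 161.7 and 141 CPM (log2 fold change -3.79 ± 0.21 SE, adjusted p = 4.62e-09), and *Fut2* 2.19-fold (log2 fold change -1.13 ± 0.12 SE, adjusted p = 3.99e-06). *St6gal2* had no UMI in chief cells, at least 9.96-fold lower, and *Gcnt4* none, at least 1.59-fold lower. *Chst4* (2 UMIs), *B3gnt7* (1) and *B4galnt3* (1) were lower by 136-fold (95% counting interval 37.4 to 1130), 110.4-fold (95% counting interval 19.4 to 4393) and 35.9-fold (95% counting interval 6.09 to 1452). The other 13 falls lay between -3.46 and -0.34 and included *St3gal1*, with 1 UMI in chief cells, *Galnt4*, *Galnt7*, *Galnt12*, *B3gnt3* and *Fut4*. By family, 5 Galnt genes fell and 2 rose, 8 caps fell and 1 rose, and 5 extension, 3 Gcnt, 1 core 1 and 1 Chst gene fell while 1 Chst gene rose. *A4gnt* (-0.38 ± 0.28, adjusted p = 0.275) and *C1galt1c1* (-0.09 ± 0.11, adjusted p = 0.527) were not called, with overlapping pools, and *B4galnt2* had 1 UMI in chief and 0 in pit cells. Besides *St3gal6*, the rises were *Chst12* (3.79 ± 0.49), *Galnt11* (1.13 ± 0.20) and *Galnt3* (0.24 ± 0.09, adjusted p = 0.0475). The log2 fold change of *Chst12* became 4.89 without pool K of the mature pit cells and 3.00 without their pool T. *Galnt3* was no longer called in edgeR without any 1 of the 4 compared pools (adjusted p from 0.110 to 0.354), in DESeq2 (0.0926), with RLE factors (0.0526), with all clusters in the fit (0.201) and with no filter on low counts (0.455). *Gcnt1* fell (log2 fold change -2.14 ± 0.83 SE, adjusted p = 0.0451) with 11 UMIs in chief cells, and lost its call in edgeR without pool K (0.139) or T (0.165) of the chief cells or pool K of the mature pit cells (0.290). The donor genes had 6 higher and 8 lower of 21 (median -0.29), the mucins and partners 4 and 4 of 11 (median -0.04), and of the 4 other transferases *St8sia6* fell (median -0.19).

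Pre-pit cells stand between the isthmus and the mature pit cell, and few enzymes separated them from it. In dataset 2, 4 enzyme genes were higher and 0 lower in mature pit than in pre-pit cells out of 49, beside 10.4% of all genes called, 6.52% higher and 3.84% lower, so that the 8.16% of enzyme genes called were near the share of all genes. Their median log2 fold change was 0.10, or 0.09 with bounds, against -0.02. At an unadjusted p under 0.05, 2 enzyme genes were lower, and DESeq2 called 1 lower. The 4 that edgeR called were *B3gnt7*, with 21.4 and 28.2 CPM against 13.5 and 14.3 (log2 fold change 0.84 ± 0.22 SE, adjusted p = 0.0281), *Fut4*, with 64.5 and 83.4 against 44.3 and 48.3 (log2 fold change 0.68 ± 0.17 SE, adjusted p = 0.0194), *Fut8*, which adds the core fucose of N-glycans, with 86.8 and 102 against 60.1 and 68.1 (log2 fold change 0.56 ± 0.10 SE, adjusted p = 0.00383), and *Galnt1* (log2 fold change 0.37 ± 0.10 SE, adjusted p = 0.0377). Leaving out 1 pool left between 0 and 3 calls in edgeR, 0 without pool T of the mature pit cells or pool K of the pre-pit cells, 1 without pool T of the pre-pit cells and 3 without pool K of the mature pit cells. With all clusters in the fit *B3gnt7* (adjusted p = 0.0801) and *Galnt1* (0.0817) lost their calls, and *Galnt1* also with no filter on low counts (0.141). With the pool as a block the count was 7, and *Gcnt3* (adjusted p = 0.0202) and *C1galt1c1* (0.0445) were then called, as they were in DESeq2 (0.0176 and 0.0315), and *Gcnt3* with no filter on low counts (0.0113). Without the block *Gcnt3* had 769 and 855 against 598 and 652 CPM, with both mature pools above both pre-pit pools (log2 fold change 0.38 ± 0.13, adjusted p = 0.0766), and *C1galt1c1* 0.28 ± 0.10 (adjusted p = 0.0935). *C1galt1* (0.03 ± 0.10), *A4gnt* (0.13 ± 0.24), *Gcnt1* (-0.16 ± 0.50), *Gcnt4* (1.5 ± 0.60), *Fut2* (0.14 ± 0.11) and *B4galnt3* (0.23 ± 0.43) were not called, and *B4galnt2* had 0 UMIs in mature pit and 1 in pre-pit cells. The donor genes had 2 higher and 1 lower of 21 (median 0.05), the mucins and partners 2 and 3 of 11 (median -0.17), and of the 4 other transferases (median 0.47) *B3galt4* and *St8sia6* rose, the latter from 0.689 to 15.5 CPM (log2 fold change 4.54 ± 0.59 SE, adjusted p = 0.00036).

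The antrum and the corpus were compared in their mature pit cells of dataset 1. Few enzyme genes were called: 1 gene of 38 was higher and 1 lower in the antrum, beside 3.24% of all genes called, 2.06% higher and 1.19% lower. The enzyme genes called were 5.26% of those tested, with a median log2 fold change of -0.02 against 0.02. *Galnt6* had 94.4 and 112 CPM in antrum and 37.3 and 61.8 CPM in corpus mature pit cells (log2 fold change 1.06 ± 0.24 SE, adjusted p = 0.0156). *Fut4*, which adds α1,3-linked fucose, had 76.0 and 69.1 in antrum and 148 and 143 CPM in corpus (log2 fold change -1.0 ± 0.21 SE, adjusted p = 0.00934). In both genes the pools did not overlap. Leaving out 1 pool left 0 or 1 call in edgeR. *Galnt6* was lost without the first pool of the corpus (adjusted p = 0.238) or the second of the antrum (0.108), and *Fut4* was lost without any 1 of the 4 pools (0.0550 to 0.0927) and in DESeq2 (0.0676). *Fut2* had 269 and 346 CPM in antrum and 202 and 239 CPM in corpus pit cells, with no overlap and no call (log2 fold change 0.47 ± 0.18, adjusted p = 0.201). *Gcnt3* (0.04 ± 0.18), *C1galt1* (-0.20 ± 0.14), *C1galt1c1* (-0.15 ± 0.19) and *A4gnt* (-0.05 ± 0.59) were not called, *Gcnt1* had 1 UMI in antrum and 3 in corpus, *Gcnt4* 14 and 3 (adjusted p = 0.539), and *B4galnt2* and *Chst4* none in either. The comparison rests on 49 antrum and 26 corpus cells, and a missing call does not show that the levels were equal. Of 20 donor genes edgeR and DESeq2 called 0, and 3 were higher at an unadjusted p under 0.05 (median 0.04). Of 13 mucins and partners (median 0.15) *Tff2* rose (1.94 ± 0.35) and *Muc1* fell (-1.11 ± 0.21). Of the 5 other transferases (median 0.19) *B3galt5*, a galactosyltransferase of type 1 chains, had 38.6 and 36.9 CPM in antrum and no UMI in corpus pit cells, at least 9.99-fold higher (adjusted p = 0.00112). The antrum pit markers *Krt7* and *Krt20* summed to 1720 CPM in antrum and 99.2 CPM in corpus mature pit cells. Goblet cell transcripts (*Muc2*, *Clca1*, *Zg16*, *Fcgbp* and *Spink4*) summed to 1340 CPM in antrum and 399 CPM in corpus mature pit cells. Enterocyte markers summed to 1332 CPM in antrum and 598 CPM in corpus mature pit cells. Antrum pre-pit cells, which are not part of this comparison, held the goblet transcripts at 3074 CPM in the first and 14836 CPM in the second pool. The part of these transcripts in the comparison was not tested.

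The last comparison was that of the enterocyte-like cells. Against antrum mature pit cells 14 of 38 enzyme genes were higher and 15 lower, beside 45.0% of all genes called, 24% higher and 21.0% lower. Of the enzyme genes 76.3% were called, and their median log2 fold change was -0.48, or 0.00 with bounds, against 0 over all genes. The count was 28 when only the 50 cells with the earlier duodenum label were used, an alternative chosen after the data were seen. Among the families, 5 Galnt genes fell and 3 rose, both core 1 genes fell, 5 of 8 extension genes rose and none fell, 7 caps fell and 3 rose, 2 Gcnt genes rose and 1 fell, and *Chst4* rose.

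*Gcnt3*, both core 1 genes, *Fut2* and *Galnt12* were low in enterocyte-like cells. *Gcnt3* had 19.7 and 19.5 CPM in enterocyte-like and 1055 and 1046 CPM in antrum mature pit cells, 53.3-fold lower (log2 fold change -5.74 ± 0.27 SE, adjusted p = 1.98e-12). *Fut2* had 19.7 and 8.68 against 269 and 346 CPM (log2 fold change -4.67 ± 0.29 SE, adjusted p = 9.04e-11), *C1galt1* 50.6 and 69.5 against 322 and 333 CPM (log2 fold change -2.38 ± 0.18 SE, adjusted p = 8.53e-10), *C1galt1c1* 45 and 63.0 against 115 and 130.0 CPM (log2 fold change -1.09 ± 0.23 SE, adjusted p = 0.00052) and *Galnt12* 11.2 and 8.68 against 151 and 129 CPM (log2 fold change -3.88 ± 0.27 SE, adjusted p = 3.47e-10). *Galntl6* (3 UMIs in enterocyte-like cells) was lower by 14.2-fold (95% counting interval 4.71 to 70.0), and *St3gal3* had no UMI, at least 1.87-fold lower, with an adjusted p of 0.0516 in edgeR without the second enterocyte-like pool. None of these pools overlapped. The pit markers summed to 5221 CPM in enterocyte-like cells, where antrum mature pit cells had 149801 CPM, and their part in these low levels was not tested.

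*St3gal4*, which caps galactose with sialic acid, had 497 and 759 CPM in enterocyte-like cells and 1 UMI in antrum mature pit cells, and was higher by 1936-fold (95% counting interval 346 to 76536). It was seen in 69 of 70 enterocyte-like cells (median 17439 UMIs) and in 1 of 49 antrum mature pit cells (median 60691 UMIs). *B4galt5* had 73.1 and 93.4 CPM and 1 UMI in antrum mature pit cells, and was higher by 247-fold (95% counting interval 43.5 to 9861). No UMI was found in antrum mature pit cells for *Gcnt2*, which makes the branches of the I antigen (30.9 and 28.2 CPM in enterocyte-like cells, at least 13.2-fold higher), *Chst4* (39.3 and 23.9 CPM, at least 14.1-fold) and *B4galnt2*, which makes the Sd(a) antigen (28.1 and 17.4 CPM, at least 10.1-fold). *B4galnt2* was not called in DESeq2 (adjusted p = 0.115). *Gcnt4* had 70.3 and 40.2 against 3.45 and 7.38 CPM, 10.05-fold higher (log2 fold change 3.33 ± 0.48 SE, adjusted p = 1.15e-05). *A4gnt* (-1.12 ± 0.78, adjusted p = 0.260) was not called and *Gcnt1* had 0 UMIs and 1 UMI. The other 8 rises had fitted log2 fold changes from 0.80 to 7.78 and included *B4galt4*, with no UMI in antrum mature pit cells, *Galnt1*, *Galnt6*, *Galnt10*, *B3gnt7* and *B4galt6*, and the other 8 falls from -5.77 to -0.43 included *St6gal2* and *St3gal5*, with no UMI in enterocyte-like cells, *Galnt3*, *Galnt4* and *Galnt7*.

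**Figure D4:**
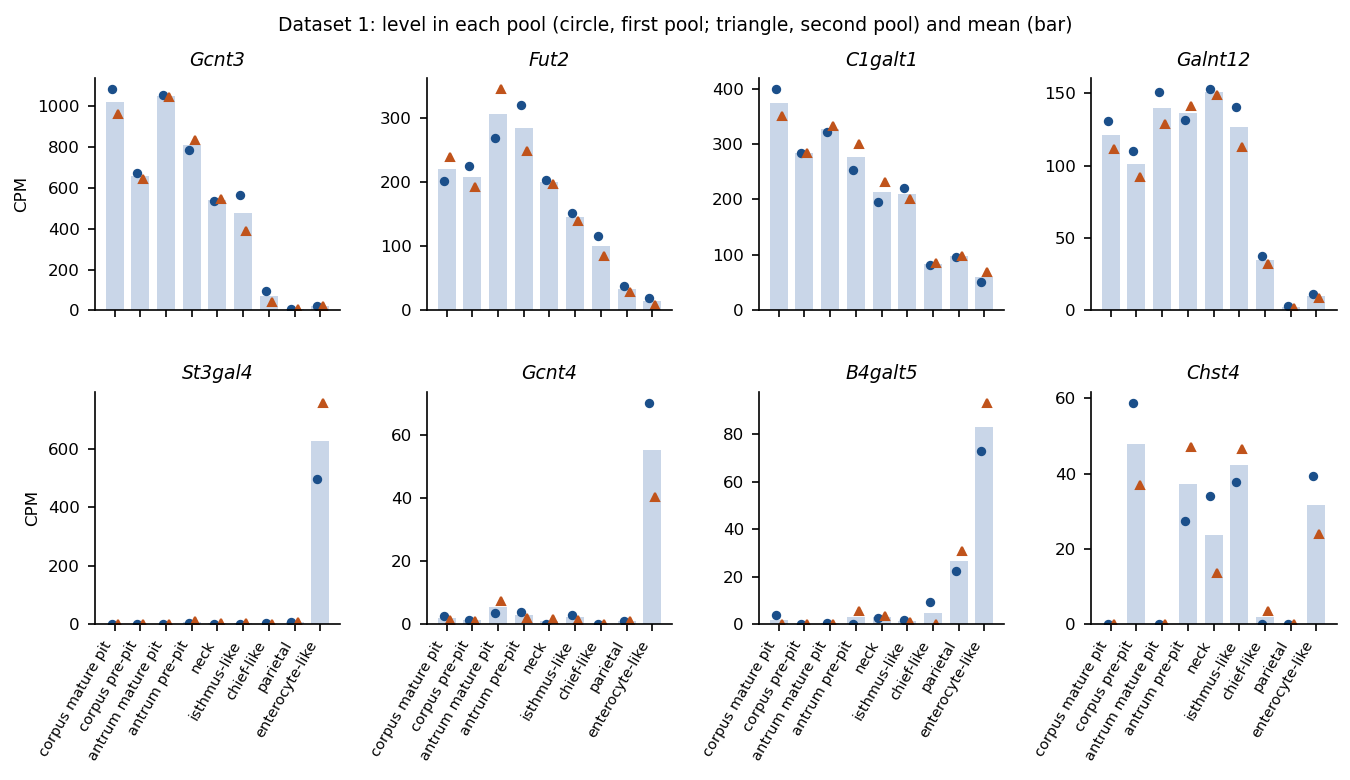
Level (CPM) of 8 enzyme genes in each pool of the 9 epithelial cell types of dataset 1, with bars at the mean of the 2 pools. *Gcnt3*, *Fut2*, *C1galt1* and *Galnt12* are high in pit cells and low in enterocyte-like cells, and *St3gal4*, *Gcnt4* and *B4galt5* are high in enterocyte-like cells. *Chst4* is at 0 in both mature pit types.

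**Figure D5:**
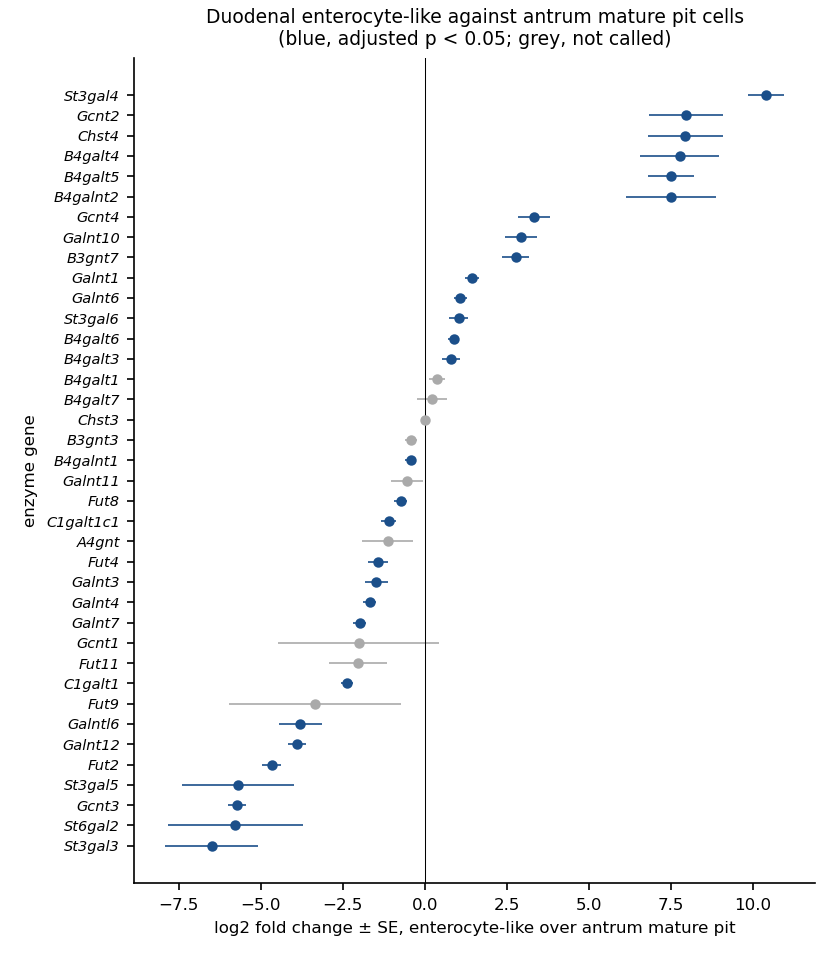
Log2 fold change (± SE) of enterocyte-like over antrum mature pit cells for the 38 enzyme genes tested, ordered by value. The 14 called rises are at the top, led by *St3gal4*, and the 15 called falls at the bottom. Genes with no UMI in a type have values that depend on the prior count of the fit.

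Of the companions in this comparison, 5 donor and transporter genes were higher and 8 lower of 20 (median -0.15), beside 45.0% of all genes called. *Slc35a1*, the Golgi transporter of CMP-sialic acid, was lower, at 19.1 ± 0.861 against 130.3 ± 22.6 CPM (log2 fold change -2.80 ± 0.27 SE, adjusted p = 4.32e-08), and *Papss2* higher, at 3116 ± 612 against 767 ± 7.44 CPM (log2 fold change 2.03 ± 0.18 SE, adjusted p = 9.08e-09). Among mucins and partners 3 rose and 7 fell of 13 (median -1.15). *Muc13*, a membrane mucin, had 2080 and 2310 against 1.73 and 0 CPM (log2 fold change 10.87 ± 0.65 SE, adjusted p = 1.73e-10), whereas *Muc5ac* had 127 ± 112 against 9663 ± 1436 CPM (log2 fold change -6.10 ± 0.38 SE, adjusted p = 6.27e-11). Of the 5 other transferases tested 4 fell (median -1.80) and edgeR and DESeq2 called 0 higher, with 0 at an unadjusted p under 0.05. The enterocyte-like cells had a median of 13.4% mitochondrial UMIs and 17439 UMIs per cell, against 4.60% and 60691 in antrum mature pit cells, and the part of this difference in the enzyme levels was not tested.

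Parietal cells, which secrete acid, are not mucous cells. In dataset 2, 10 enzyme genes were above every other epithelial type in both pools there, a share near that of all genes (21.8%). They are given as levels, since parietal cells were not among the groups compared by test, and the genes named were chosen after their values were seen. *Fut9*, a fucosyltransferase that makes the Lewis X structure, had 262 and 282 CPM in the parietal pools, and its next type, neck cells, had 4.54 ± 0.471 CPM. It was seen in 651 of 702 parietal cells (92.7%) and in 7.86% of neck cells, which were shallower (medians 47647 and 22530 UMIs). *St3gal5*, which makes the ganglioside GM3, had 121 and 99.9 CPM against 6.84 ± 0.602 CPM in mature pit cells, *Chst3*, a sulfotransferase of chondroitin, 55.7 and 45.9 against 0.475 and 0.486 CPM in isthmus cells, and *B4galt5* 30.7 and 32.4 against 4.63 ± 0.562 CPM in chief cells. *Fut9* and *Chst3* differed between the 2 parietal clusters, with 369 ± 19.1 and 69.4 ± 7.23 CPM in cluster 1 and 135 ± 44.3 and 24.2 ± 0.748 CPM in cluster 8. In dataset 1 the parietal pools had 189.7 and 145 CPM of *Fut9*, 111 and 93.6 CPM of *St3gal5* and 27.7 and 43.3 CPM of *Chst3*, again above every other epithelial type in both pools. *B4galt5* had 22.4 and 30.6 CPM there and was higher in enterocyte-like cells, at 73.1 and 93.4 CPM. *A4gnt* had 14.1 and 20.5 CPM, *Gcnt3* 20.2 and 19.0 CPM and *Galnt12* 8.49 and 9.96 CPM in the parietal pools of dataset 2, each below the other 5 types in both pools.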

How the data were processed

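Quartz-Seq2 libraries of 18 plates were sequenced, converted with bcl2fastq (version 2.20.0.422 in the labels), and aligned by the authors with STAR to GRCm39 with Gencode M27, after which Drop-seq tools gave the deposited UMI counts per gene and well. Cells were kept and clustered by the authors with Seurat. A well needed at least 2500 detected genes, and 4484 cells were kept. The percent of UMIs on mitochondrial genes was taken from the deposited cell annotation. Cells went into wells through a singlet gate of the sorter that the authors checked under a microscope, and no doublet caller was run on the counts.

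From these files the UMI counts of the plates were summed over the cells of each type in each pool, giving 12 sums of 2165683 to 29539575 UMIs in dataset 2 and 18 sums of 413391 to 2362300 UMIs in dataset 1. Each dataset was fitted alone with edgeR 4.0.16 in R 4.3.3 (TMM factors, filterByExpr, quasi-likelihood test), with all types in one fit, and Benjamini-Hochberg adjustment over all genes tested. Calls needed an adjusted p under 0.05. CPM use the scaled library sizes. The 2 pools are the replicates, each of 3 mice, and cells or plates of a pool are not. In each dataset the pools were prepared by different operators, so that differences between mice and between operators cannot be told apart. A fold against 0 UMIs was bounded with 3 UMIs per type and pool, and ratios with 1 to 3 UMIs carry an exact 95% interval of counting error.

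Types of one pool come from the same mice. The deviations of same-pool sums from their type means had a median correlation of 0.132 over 15 pairs of types in dataset 2 and 0.0119 over 36 pairs in dataset 1, and the pool was added as a block as an alternative. In dataset 2 these correlations ran from 0.0689 to 0.411, with 12 of the 15 above 0.1, so that its pools did pair the sums to some degree. In dataset 1 they ran from -0.0385 to 0.0777, with 0 above 0.1. The main fit left the pairing out in both. Other alternatives were DESeq2 1.42.0, RLE factors, no filter on low counts, all clusters in the fit, neck without cluster 12, and each pool left out. The genes named are 10 enzymes fixed for every comparison, and in each comparison the 5 largest rises and 5 largest falls by fitted log2 fold change. These were taken among the genes called whose higher type had 10 UMIs or more in each pool and whose direction was the same in both pools. Others are named as chosen after their values were seen. The member genes, companion lists and markers were chosen with earlier results of these data known.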

Additional observations from a re-analysis of the deposited data

Results flagged for a closer look

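*Chst4* and *Galnt6* were called in both datasets in opposite directions between neck and mature pit cells, with every neck pool on one side of the pit pools in dataset 1 and on the other in dataset 2. The log2 fold change of neck over mature pit cells was 7.58 in dataset 1 and -4.86 in dataset 2 for *Chst4*, and 1.48 in dataset 1 and -0.44 in dataset 2 for *Galnt6*. The first value depends on the prior count of the fit, since corpus mature pit cells of dataset 1 held no UMI of *Chst4*. The difference between the datasets was not tested. The datasets differ in mice, region, depth, clustering, the order of the enzymes that dissociated the tissue (pronase first in dataset 1, collagenase first in dataset 2) and the removal of Hoechst-negative debris, done in dataset 2 alone, and these cannot be told apart here. No group had enough pools for a check of single pools that stand apart.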

How the results depend on the processing

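Under the alternatives run, the count of enzyme genes called lay between 23 and 32 in neck against mature pit cells of dataset 2 (31 reported), 23 and 31 in chief against neck (30), 23 and 27 in chief against mature pit (27), 15 and 19 in neck against corpus mature pit cells of dataset 1 (17) and 24 and 31 in enterocyte-like against antrum mature pit cells (29), each within 1.5 times the reported count. In mature pit against pre-pit cells the count of 4 became 7 with DESeq2, 2 with all clusters in the fit and 7 with the pool as a replicate block, and 0 to 3 when 1 pool was left out. In antrum against corpus mature pit cells the count of 2 became 1 with DESeq2 and 0 to 1 when 1 pool was left out. The pool as a block moved no other count by over 1.5 times. Between neck and pit cells 22 of 27 genes kept by the UMI minimum had the same sign in both datasets, against 28 of 38. Of 974 values of named genes under these alternatives, 52 lost the call, 5 gained it and 917 kept their side of the threshold, 16 of these with the other sign but called in neither setting. The cause was not tested. With 1 pool left out, the remaining pool was assumed to vary like the other types. At this depth 30 members in dataset 2 and 41 in dataset 1 had too few UMIs to be tested.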

Other observations

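Enzyme levels in the small clusters outside the epithelial types above are given as values, since these clusters entered no test, and the genes were chosen after their values were seen. Cluster 17 of dataset 2 (15 and 14 cells), which held *Ghrl* at 152424 CPM, had 77.0 ± 34.9 CPM of *Galnt13*, a starter of chains best known from neurons, from 59 UMIs, whereas the 6 epithelial types held 1 UMI of it in all. Cluster 14 of dataset 2 (22 and 31 cells), led among endocrine markers by *Chga*, had 116 ± 14.4 CPM of *St3gal4*.

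Tuft cell markers (*Dclk1*, *Trpm5* and *Pou2f3*) summed to 1988 CPM in cluster 15 of dataset 2 and to 2792 CPM in cluster 14 of dataset 1. They had 182 ± 1.21 and 223 ± 40.4 CPM of *B4galt5*. Cluster 15 also held stromal markers at 788 CPM. Endothelial markers were at 3655 CPM in cluster 19 of dataset 2 (4 and 5 cells) and at 4550 CPM in cluster 13 of dataset 1 (4 and 11 cells). These had 93.7 ± 29.0 and 191 ± 29.5 CPM of the sulfotransferase *Chst2*, 128 ± 0.319 and 169.1 ± 18.9 CPM of *Chst15*, 188 ± 44.2 and 140.4 ± 18.2 CPM of *St3gal6* and 162.8 ± 28.4 and 152 ± 54.1 CPM of *B4galt4*. Stromal markers were at 15928 CPM in cluster 11 and 22894 CPM in cluster 12 of dataset 1, which had 149 ± 35.1 CPM of *Chst1* and 123 ± 23.5 CPM of *B3gnt9*. In cluster 19 these values rest on 12 to 23 UMIs, and in clusters 11 to 13 of dataset 1 on 30 to 41.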
